A study of Mus musculus with 8 samples.

Results

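The cytokines oncostatin M, LIF, CLCF1 and CNTF signal through receptor complexes that share the subunit gp130, and the genes described here are those of 4 ligands (Osm, Lif, Clcf1, Cntf), 4 receptor subunits (Osmr, Il6st, Lifr, Cntfr), the transcription factor Stat3 and its feedback inhibitor Socs3. The 10 genes were taken by name, and each was represented by the transcript cluster that the platform annotation gives to that gene alone, the brightest if there were several. Such a cluster existed for 9 of the 10 genes, of 19938 genes measured in this way. Cntf was skipped because its cluster carries 3 gene symbols. Stat3 and Socs3 are the signalling genes below, and levels are log2 values throughout.

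The effect of diet was compared in corpus callosum, the white matter tract between the hemispheres, of male wild-type C57BL/6 mice aged 8 weeks per the labels: 4 arrays from mice fed 0.25% cuprizone for 1 week, and 4 arrays from mice on normal diet. Cuprizone binds copper and, fed to mice, harms oligodendrocytes, the myelin-forming cells. The whole tissue was dissected by hand after perfusion, and RNA was measured on Affymetrix Mouse Gene 1.0 ST arrays. The labels do not say whether 8 weeks was the age at the start of the diet or at dissection. They call the arrays biological replicates but do not say whether each held 1 mouse, so p-values measure the spread between these samples.

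As background, an engaged gp130 complex activates JAK kinases bound to its cytoplasmic tails, which phosphorylate STAT3, and STAT3 then moves to the nucleus. Il6st encodes gp130 itself. Osmr pairs with gp130 to bind oncostatin M, Lifr pairs with it to bind LIF, and Cntfr adds a binding subunit for CNTF and CLCF1. Among the genes that STAT3 induces is Socs3, whose product blocks JAK activity at gp130. In the injured brain, STAT3 in astrocytes is known as a regulator of reactive gliosis and of the filament gene Gfap, and LIF and CNTF are known as factors that favour oligodendrocyte survival.

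The arrays had median levels of 7.44 to 7.49 over the 23410 gene-named clusters, and correlated at 0.9952 to 0.9971 within a group and at 0.9884 to 0.9944 between groups. An array of each group stood apart on the first principal component (52.2% of the variance). Cuprizone replicate 2 had a score of 8.73, against 16.5 to 22.5 for the other cuprizone arrays, and control replicate 2 had a score of -13.2, against -18.6 to -18.1 for the other controls. Markers of mature oligodendrocytes, the defining cells of white matter, fell with cuprizone in 12 of 12 measured genes at an adjusted p under 0.05 in limma. Of all clusters tested 3.52% were called lower. Mog, a protein of the myelin surface, stood at 6.93 to 7.86 with cuprizone, against 11.01 to 11.29 in controls, and had a log2 fold change of -3.78 ± 0.18 (SE; adjusted p = 1.14e-06 in limma).

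After 1 week of cuprizone, 5 of the 9 measured genes were higher and none was lower at an adjusted p under 0.05 in limma. Over all clusters tested, 4.71% were called higher, 3.52% lower and 8.22% in either direction. The genes were chosen with earlier results of these data known, so the counts in this paragraph describe these arrays only. Osmr rose 3.88-fold, Clcf1 2.32-fold, Stat3 1.76-fold, Il6st 1.24-fold and Socs3 1.20-fold. Osm, Lif, Lifr and Cntfr did not pass the threshold. At an unadjusted p under 0.05, 1 gene was lower, Cntfr, and an ordinary F test without moderation called 0 genes lower. The groups did not overlap for the same 5 genes, all higher with cuprizone, where 8.24% of all clusters did not overlap and were higher, 7.09% were lower and 15.3% lay either way. The median log2 fold change of the 9 genes was 0.26, and that of all clusters tested was -0.0074.

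**Figure D1:**
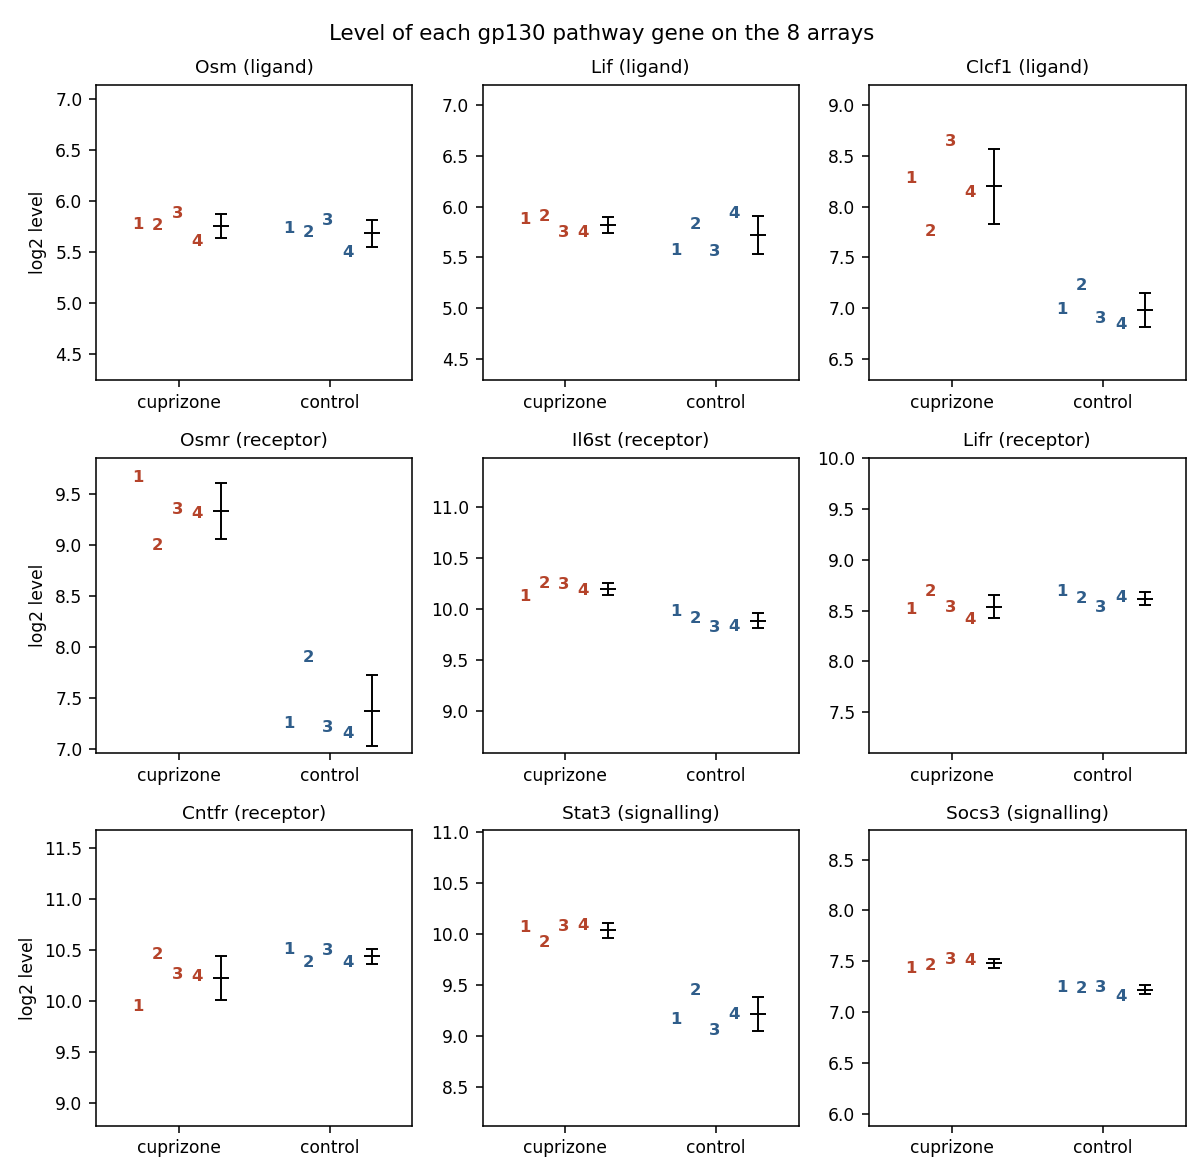
Log2 level (vertical axis) of the 9 measured genes on each array, with cuprizone left and control right. Numerals are the replicate numbers and bars show mean and SD (n = 4 each), and every panel spans the same number of log2 units. The groups do not overlap for Clcf1, Osmr, Il6st, Stat3 and Socs3.

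Among the ligands only Clcf1 passed the threshold. Clcf1 (transcript cluster 10460385), cardiotrophin-like cytokine factor 1, which is secreted with a partner chain and acts through the CNTF receptor, had levels of 8.27, 7.75, 8.64 and 8.14 on the cuprizone arrays, against 6.99, 7.22, 6.90 and 6.85 on the control arrays. All 4 cuprizone levels lay above the highest control, and cuprizone replicate 2 was the lowest of its group while control replicate 2 was the highest of its own. The means were 8.20 ± 0.37 with cuprizone and 6.99 ± 0.17 in controls (SD, n = 4 each), so the log2 fold change was 1.21 ± 0.16 (SE; adjusted p = 0.000678 in limma). It was 1.36 without cuprizone replicate 2 and 1.29 without control replicate 2.

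Osm (cluster 10373912), oncostatin M, which myeloid cells and T cells make, had levels of 5.77, 5.76, 5.88 and 5.60 with cuprizone, against 5.72, 5.69, 5.81 and 5.49 in controls. The groups overlapped, and the log2 fold change was 0.07 with a 95% interval of -0.10 to 0.25 (limma adjusted p = 0.694). Lif (cluster 10373918), leukemia inhibitory factor, had levels of 5.88, 5.90, 5.75 and 5.75 with cuprizone, against 5.56, 5.82, 5.56 and 5.93 in controls. Here too the groups overlapped, and the highest array of all was a control. The log2 fold change of Lif was 0.10 with a 95% interval of -0.10 to 0.30 (limma adjusted p = 0.612). Both genes belong to the dimmest 25% of the clusters tested, with 20.9% of clusters dimmer than Osm and 21.7% dimmer than Lif, and detection calls were not used here. Whether either transcript stood above background is therefore not known.

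Receptor genes did not move together. Osmr (cluster 10427471), the oncostatin M receptor subunit, had levels of 9.667, 9.001, 9.355 and 9.310 on the cuprizone arrays, against 7.249, 7.894, 7.208 and 7.151 on the control arrays. Every cuprizone array stood more than 1 log2 unit above every control, and control replicate 2 stood clearly above the other controls. Mean levels were 9.33 ± 0.27 with cuprizone and 7.38 ± 0.35 in controls (SD, n = 4 each), and the log2 fold change was 1.96 ± 0.17 (SE, limma adjusted p = 4.82e-05), or 2.13 without control replicate 2 and 2.07 without cuprizone replicate 2.

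Il6st (cluster 10407173), the gp130 subunit that all these cytokines use, had levels of 10.12, 10.25, 10.23 and 10.18 with cuprizone, against 9.98, 9.90, 9.82 and 9.83 in controls. The groups did not overlap, but the distance between the lowest cuprizone array and the highest control was small. Its log2 fold change was 0.31 ± 0.06 (SE, limma adjusted p = 0.00621), with a 95% interval of 0.19 to 0.44.

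Lifr (cluster 10422822), the LIF receptor subunit, had levels of 8.51, 8.69, 8.53 and 8.41 with cuprizone, against 8.68, 8.62, 8.53 and 8.63 in controls. The groups overlapped, and cuprizone replicates 2 and 4 were the highest and the lowest of the 8 arrays. For Lifr the log2 fold change was -0.08, with a 95% interval of -0.23 to 0.07 (limma adjusted p = 0.584). Cntfr (cluster 10512279), the CNTF receptor alpha subunit, which is anchored to the membrane and has no cytoplasmic tail, had levels of 9.94, 10.46, 10.26 and 10.24 with cuprizone, against 10.51, 10.38, 10.50 and 10.38 in controls. Cuprizone replicates 1, 3 and 4 lay below every control, and replicate 2 lay among the controls. The log2 fold change of Cntfr was -0.21 with a 95% interval of -0.43 to -0.004 (limma adjusted p = 0.230), and it ranged from -0.29 without cuprizone replicate 2 to -0.12 without cuprizone replicate 1, with no call in either case.

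**Figure D2:**
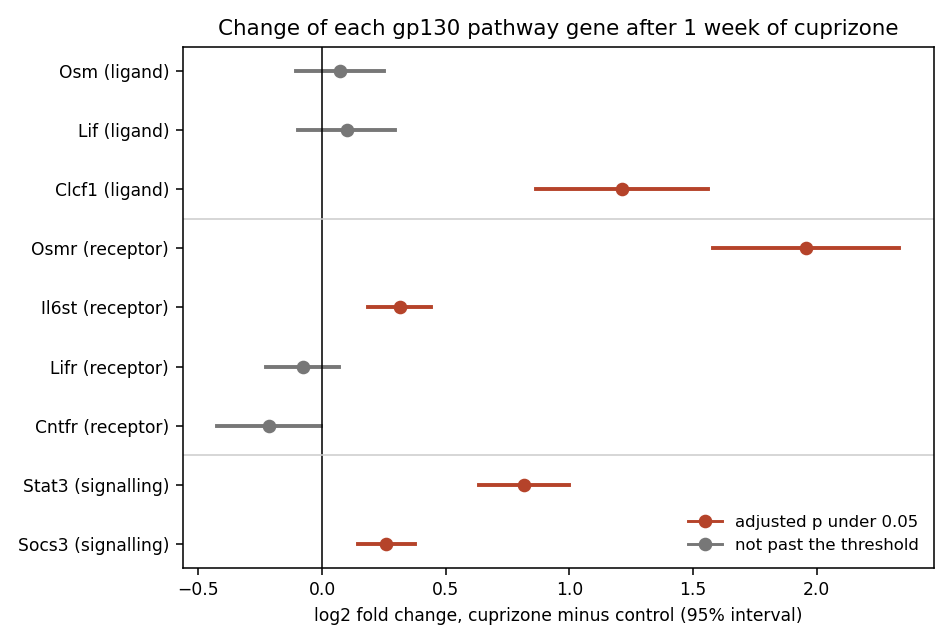
Log2 fold change of cuprizone minus control (horizontal axis) with its 95% interval from limma for the 9 measured genes, in the order ligands, receptors and signalling genes. Osmr stands furthest right at 1.96 and Clcf1 next at 1.21, and the intervals of Osm, Lif and Lifr include 0.

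The differences between the changes were tested within each role, as the level of one gene minus that of another on the same array, with an exact permutation test (two-sided, 70 possible splits into 4 and 4 arrays). For 8 of the 10 pairs the groups did not overlap and the p was 0.0286, the smallest that 4 against 4 arrays can give. Benjamini-Hochberg adjustment over the 10 pairs gave 0.0357 for each of these 8. The pairs share genes, which were chosen with earlier results of these data known. Most of these outcomes follow from the changes of the single genes given above. The share over other pairs of clusters was not computed, so the count describes these arrays only. The change in Osmr exceeded that in Il6st by 1.64 ± 0.23 log2 units (SE), that in Lifr by 2.04 ± 0.25 and that in Cntfr by 2.17 ± 0.31. Il6st in turn changed by 0.39 ± 0.05 more than Lifr and by 0.53 ± 0.09 more than Cntfr. Among the ligands, the measured difference between the groups was larger for Clcf1 than for Lif by 1.11 ± 0.24 and than for Osm by 1.14 ± 0.19. Lif and Osm are not known to stand above background, where a change in a transcript may not show in its cluster, so these values compare measured levels only. The remaining pairs were Lif and Osm, at a difference of 0.03 ± 0.17 (exact permutation adjusted p = 0.800), and Lifr and Cntfr, at 0.14 ± 0.10 (exact permutation adjusted p = 0.318).

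Osmr and Lifr are neighbours on mouse chromosome 15, with 3 genes between them in the RefSeq annotation of GRCm38.p6 and 0 of these protein-coding. Osmr rose and Lifr did not pass the threshold. Osm and Lif are neighbours on chromosome 11 with 0 genes between them, and neither passed it.

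Both signalling genes rose. Stat3 (cluster 10391301), the main transcription factor downstream of gp130, had levels of 10.06, 9.92, 10.07 and 10.08 with cuprizone, against 9.16, 9.45, 9.05 and 9.21 in controls. Cuprizone replicates 1, 3 and 4 were almost level and replicate 2 was lower, and control replicate 2 was again the highest control. The means were 10.03 ± 0.08 with cuprizone and 9.22 ± 0.17 in controls (SD, n = 4 each), and the log2 fold change was 0.82 ± 0.08 (SE; adjusted p = 0.000133 in limma).

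Socs3 (cluster 10393449), the suppressor of cytokine signalling that binds gp130, had levels of 7.43, 7.46, 7.52 and 7.51 with cuprizone, against 7.24, 7.24, 7.24 and 7.15 in controls. The groups did not overlap and each spanned 0.09 log2 units. Its log2 fold change of 0.26 ± 0.05 (SE; adjusted p = 0.0100 in limma) was smaller than that of Stat3 by 0.56 ± 0.09 (SE, exact permutation p = 0.0286). A second cluster annotated to Socs3 alone (10383010), dimmer than the first, had levels of 6.60, 6.57, 6.64 and 6.69 with cuprizone, against 6.53, 6.69, 6.59 and 6.57 in controls. In that cluster the groups overlapped, at 0.03 ± 0.06 as log2 fold change (SE; adjusted p = 0.844 in limma), so the 2 clusters of Socs3 disagree and its rise rests on the brighter one.

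RefSeq promoters, 250 bases before to 50 after a transcript start on GRCm38.p6, were listed for 7 of the 9 measured genes, and not for Osm or Clcf1. The 200 bases before the start are shown for the 4 genes among them that rose, since STAT3 acts through promoter elements. The annotated genes Osmr, Stat3 and Socs3 reach further upstream than the start used here. Capitals mark the letters TTCNNNGAA, the palindromic core that STAT factors bind, which reads the same on both strands.
Osmr, chr15:6874314-6874513, minus strand: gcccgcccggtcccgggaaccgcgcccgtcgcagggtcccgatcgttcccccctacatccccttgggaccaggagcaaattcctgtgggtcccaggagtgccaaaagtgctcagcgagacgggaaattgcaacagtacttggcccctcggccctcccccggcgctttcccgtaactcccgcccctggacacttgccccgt
Il6st, chr13:112463870-112464069, plus strand: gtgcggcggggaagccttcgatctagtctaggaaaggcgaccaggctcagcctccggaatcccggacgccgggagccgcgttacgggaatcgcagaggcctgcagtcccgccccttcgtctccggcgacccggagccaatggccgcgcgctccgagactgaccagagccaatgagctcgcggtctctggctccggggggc
Stat3, chr11:100939541-100939740, minus strand: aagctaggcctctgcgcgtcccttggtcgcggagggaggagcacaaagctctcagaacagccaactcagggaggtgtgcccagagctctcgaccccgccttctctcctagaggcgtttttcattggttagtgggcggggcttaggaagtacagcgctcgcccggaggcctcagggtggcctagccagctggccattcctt
Socs3, chr11:117969367-117969566, minus strand: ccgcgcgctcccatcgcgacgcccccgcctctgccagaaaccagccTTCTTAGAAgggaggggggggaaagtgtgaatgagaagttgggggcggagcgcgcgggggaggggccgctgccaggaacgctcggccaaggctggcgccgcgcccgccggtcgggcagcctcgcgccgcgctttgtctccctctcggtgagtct

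Of the 13 promoters listed for the 7 genes, 1 held the motif, that of Socs3, where TTCTTAGAA begins at base -154 from the start. Several of the 13 are alternative starts of Cntfr or Lifr, and some of those of Cntfr overlap. By gene it was 1 of 7. The motif TTCNNNGAA was held by 8.30% of all 32851 RefSeq promoters of that length. The promoters of the other rising genes shown, and those of Lif, Lifr and Cntfr, did not hold these letters in this window, which says nothing about elements elsewhere. The 4 promoters shown were rich in G and C, at 66.0% for Osmr, 68.3% for Il6st, 60.7% for Stat3 and 73.3% for Socs3 over their 300 bases, where the median of all promoters was 52.7%. The listed promoters of Lif, Lifr and Cntfr, which did not pass the threshold, lay between 51.3% and 81.3%.

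Arrays differed within a group in the size of the response. Of the 5 genes that rose, 3 (Osmr, Clcf1 and Stat3) were lowest within the cuprizone group on replicate 2, and the same 3 were highest within the control group on replicate 2. Relative to the control mean, Osmr stood at 2.29, 1.63, 1.98 and 1.94 on cuprizone replicates 1 to 4, and Clcf1 stood at 1.29, 0.76, 1.65 and 1.15. Il6st ran differently, with cuprizone replicate 2 as its highest array at 0.36 and replicate 1 as its lowest at 0.24. All 5 genes were called higher in each fit that left out 1 array.

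**Figure D3:**
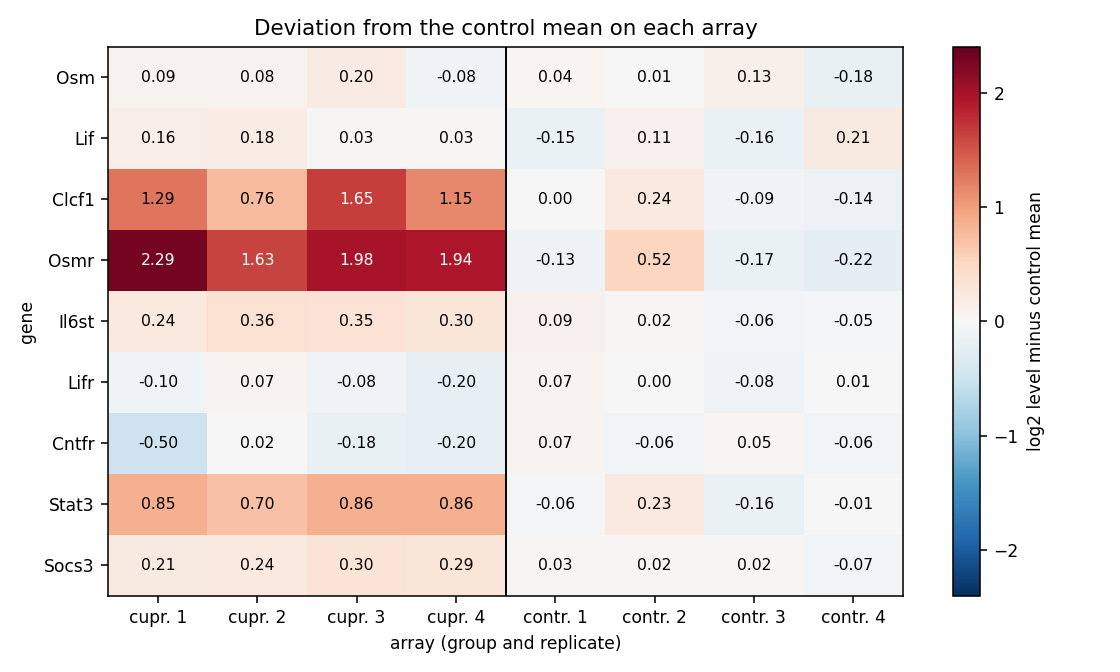
Log2 level minus the control mean for each of the 9 genes (rows) on each of the 8 arrays (columns, cuprizone left of the line and control right of it), with red for above and blue for below. Osmr ranges from 1.63 to 2.29 on the cuprizone arrays, and control replicate 2 stands at 0.52.

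Among the other ligand, partner and receptor genes of the family only Il6ra passed the limma threshold, where 8.22% of all clusters passed in either direction. The lists also counted Il31 and Il31ra, so they are wider than the genes of complexes that share gp130. Of 7 other ligands and partner chains measured, among them Il11 and Il27, 0 passed the limma threshold, 1 passed an unadjusted p under 0.05 and 0 passed the ordinary F test. That 1 was Il6, at levels of 3.46 to 3.84 with cuprizone, against 3.17 to 3.43 in controls, or 0.24 as log2 fold change (limma adjusted p = 0.183). Ctf1, cardiotrophin 1, stood at 0.11 (limma adjusted p = 0.370). Of the clusters tested, 1.9% were dimmer than Il6, 24.5% than Ctf1, 26.3% than Il11 and 43.4% than Il27. Whether these transcripts stood above background is not known, and a change in them may not show. Of 3 other receptor genes 1 rose, Il6ra, the interleukin 6 receptor alpha chain. Its levels were 8.01, 7.85, 8.01 and 7.84 with cuprizone, against 7.49, 7.64, 7.48 and 7.64 in controls, without overlap. The log2 fold change of Il6ra was 0.37 ± 0.07 (SE, limma adjusted p = 0.00591). The median was -0.02 for the ligands and -0.05 for these receptors, close to that of all clusters.

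Among 8 other JAK kinases and STAT factors 0 passed the limma threshold, 1 passed an unadjusted p under 0.05 and 0 passed the ordinary F test, with a median of 0.04. Stat2, a partner in interferon signalling, had levels of 9.25, 8.21, 9.03 and 8.52 with cuprizone, against 8.22, 8.19, 8.17 and 8.21 in controls. Its cuprizone replicate 2 lay within the control range, and the log2 fold change was 0.55 (limma adjusted p = 0.100), or 0.73 without that array (limma adjusted p = 0.00782, in a range of 0.00782 to 0.273 over the alternatives). Stat4 stood at -0.28 (limma adjusted p = 0.250). Of 14 other inhibitors of the pathway 1 rose and 0 fell, near the shares of 4.71% and 3.52% over all clusters. At an unadjusted p under 0.05 1 was lower, and by the ordinary F test 0 were, with a median of 0.02. The 1 that rose was Ptpn6, a phosphatase of blood and microglial cells also called SHP-1, at 0.24 ± 0.05 (SE, limma adjusted p = 0.0153).

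Genes that gp130 cytokines or STAT3 are known to induce in one cell type or another rose in larger number. Of 30 such genes measured 16 rose and 0 fell in limma, against 4.71% and 3.52% of all clusters. The median was 0.46, 0 were lower at an unadjusted p under 0.05, and 12 rose and 0 fell by the ordinary F test. Several were already known to have risen in these data when the list was made, so it is a description of these arrays. Many of its members also respond to other signals.

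The 4 with the smallest p were Gfap, Serpina3n, A2m and Vim. Gfap, the intermediate filament of astrocytes, had levels of 10.71, 10.77, 10.71 and 10.78 with cuprizone, against 9.84, 9.79, 9.64 and 9.84 in controls, or 0.96 ± 0.06 as log2 fold change (SE; adjusted p = 4.72e-06 in limma). Its cuprizone arrays were nearly level, unlike those of Osmr. Serpina3n, a protease inhibitor, rose by 1.80 ± 0.13, A2m, a protease-trapping plasma protein, by 1.44 ± 0.11, and vimentin, Vim, by 1.74 ± 0.14 (SE, limma adjusted p of 2.01e-05 or less for the first pair and 2.78e-05 for Vim). The list mean stood 0.54 to 0.76 above the control mean on the cuprizone arrays, and at -0.08 to 0.12 on the controls, with control replicate 2 the highest.

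**Figure D4:**
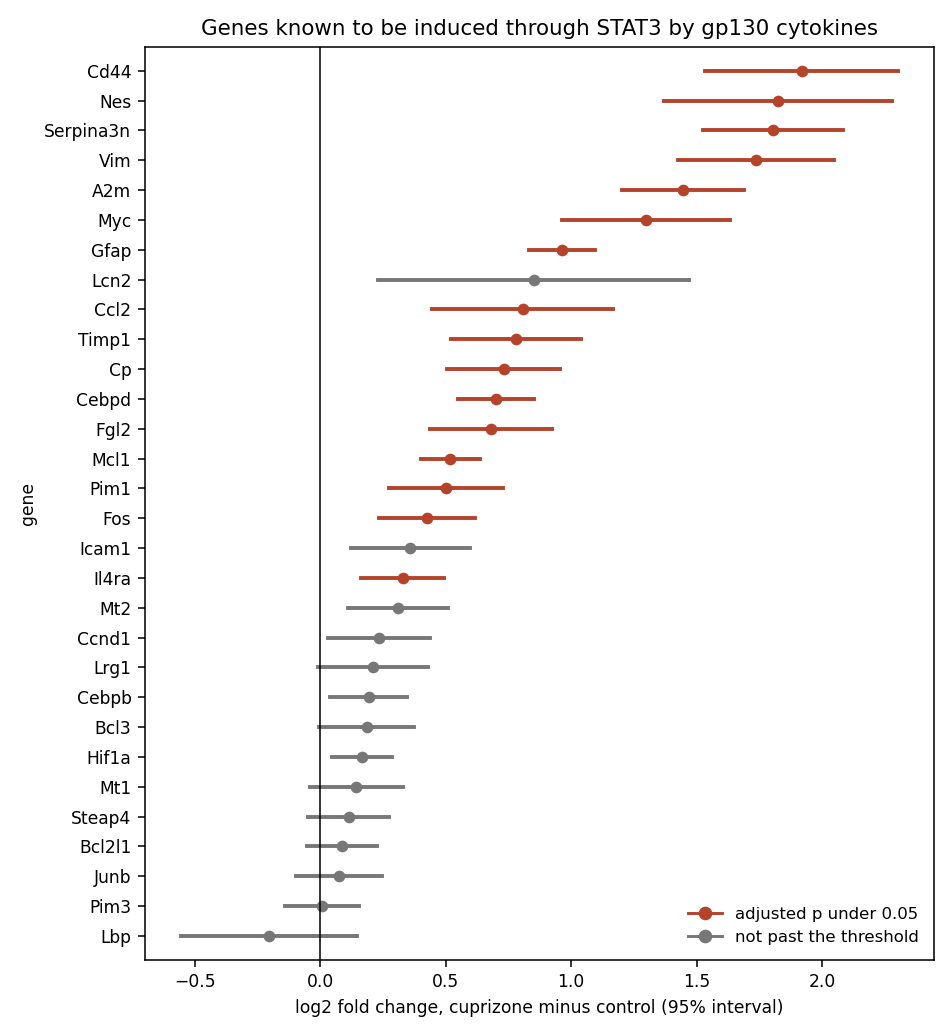
Log2 fold change of cuprizone minus control (horizontal axis) with its 95% interval from limma for 30 genes that gp130 cytokines or STAT3 are known to induce, sorted by size. The 16 red genes passed the threshold, with Cd44 at 1.92 and Nes at 1.82 highest, and Lbp is the lowest at -0.20.

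The genes whose levels over the 8 arrays were most like those of the 3 members with the largest changes were found by the root mean square difference, after each gene's control mean was subtracted, among 18345 named genes. For Osmr these were the hyaluronan receptor Cd44 (0.14 log2 units), the filament genes Nes (0.16) and Vim (0.19), the calcium-binding protein S100a11 (0.22) and the transcription factor Runx1 (0.22). Control replicate 2 was the highest control and cuprizone replicate 2 the lowest cuprizone array in each of them, as in Osmr. This follows in part from their choice by likeness to Osmr, and the same arrays stood apart on the first principal component. For Clcf1 they were the small heat shock protein Hspb8 (0.09), the surface protein Cd109 (0.11), the matrix protein Tgfbi (0.13), the antiviral protein Zc3hav1 (0.13) and the chemokine Ccl5 (0.14). For Stat3 they were Dock2, an exchange factor of leukocytes (0.07), the calponin Cnn3 (0.07), Tent5a (0.08), the amino acid transporter chain Slc3a2 (0.08) and Cd68, a lysosomal protein of macrophages (0.09).

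Cell type markers moved beside these genes, and their part in the changes was not tested. The lists were chosen with earlier results of these data known. In whole tissue, fewer or more cells of a type and less or more RNA per cell cannot be told apart. The mean level of 12 mature oligodendrocyte markers was 8.08 to 8.90 with cuprizone, against 10.63 to 10.89 in controls. Of 11 microglial markers 7 rose and 0 fell in limma, against 4.71% and 3.52% of all clusters. At an unadjusted p under 0.05 9 were higher and 0 lower, and by the ordinary F test 4 were higher and 0 lower. The count of microglial markers called higher was also 4 without control replicate 1, without control replicate 4 and without cuprizone replicate 4. Their mean level was 8.28 to 8.62 with cuprizone, against 8.04 to 8.11 in controls. Csf1r, the colony stimulating factor receptor, rose by 0.61 ± 0.06 (SE, limma adjusted p = 0.000164), and Trem2 (0.51), Itgam (0.57) and Olfml3 (0.51) were also called higher.

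The 12 astrocyte markers moved both ways, 4 higher and 3 lower in limma, where 4.71% of all clusters were higher and 3.52% lower. By the ordinary F test 3 were higher and 1 lower. Without control replicate 1 or without cuprizone replicate 4, 1 was lower in limma. Their mean level was 9.91 to 10.21 with cuprizone, against 9.99 to 10.09 in controls. The urea transporter Slc14a1 (1.19 ± 0.12), the transcription factor Sox9 (0.43 ± 0.07) and the folate enzyme Aldh1l1 (0.32 ± 0.07) rose. The glutamate transporter Slc1a2 fell by 0.60 ± 0.07 on the log2 scale (SE, limma adjusted p of 0.0106 or less for all 4 of these). Also called lower were Ntsr2 (-0.62, limma adjusted p = 0.0173) and Gja1 (-0.43, limma adjusted p = 0.0288). Slc1a3 was called higher (0.32, limma adjusted p = 0.0451). The median log2 fold change of the 12 markers was -0.06.

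Blood cell markers did not pass the threshold, and many of their clusters were dim. Of the clusters tested, 3.2% were dimmer than Ccr2 and 29.1% than Camp, the dimmest and brightest of the neutrophil and monocyte markers. For the lymphocyte markers these ends were Ms4a1 (8.9%) and Cd4 (48.1%). Whether these transcripts stood above background is not known, and a change in them may not show. None of 10 neutrophil and monocyte markers and none of 9 lymphocyte markers was called in limma or by the ordinary F test, and 1 gene of each list passed an unadjusted p under 0.05. The mean level of the myeloid blood markers was 4.89 to 5.06 with cuprizone, against 4.90 to 5.07 in controls, and that of the lymphocyte markers was 5.77 to 5.95 with cuprizone, against 5.76 to 5.91 in controls. In the lists of 12 endothelial and mural, 12 neuronal, 8 oligodendrocyte progenitor and 10 meningeal markers 0 genes were called in limma, with 3, 1, 3 and 3 at an unadjusted p under 0.05 and 0, 1, 0 and 0 by the ordinary F test. Without 1 array some of these counts were not 0, at 1 progenitor marker lower without control replicate 2, 1 endothelial and mural marker lower and 1 meningeal marker higher and 2 lower without cuprizone replicate 2, and 1 meningeal marker lower without cuprizone replicate 1.

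Of 12 choroid plexus and ependymal markers 1 passed the threshold, near the share of 8.22% of all clusters called in either direction. The 1 was Rarres2, at -0.34 (limma adjusted p = 0.0146). By the ordinary F test 0 passed, and Rarres2 had an adjusted p of 0.0657. The mean level of these markers was 7.04 to 7.77 with cuprizone, against 7.04 to 8.04 in controls, and replicates 2 and 4 lay above replicates 1 and 3 in both groups. Ttr, the transthyretin of choroid plexus epithelium, had levels of 9.84, 12.19, 9.91 and 12.11 with cuprizone, against 10.23, 12.32, 9.56 and 12.58 in controls. The spread of Ttr within each group was wider than the difference between the groups.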

How the data were processed

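The deposited table holds log2 levels of 28944 transcript clusters on 8 arrays. Per the labels, 150 ng of total RNA was amplified and labelled for each array, and the tools listed in the submitters' processing notes are RMA, Affymetrix Expression Console and Transcriptome Analysis Console, with no version. RMA as published corrects background and equalises arrays, which hides any shift common to most transcripts. Scan dates were not used here, and no batch was tested.

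Clusters were named by the platform annotation, and 23410 with a symbol were tested with limma (version 3.58.1, R 4.3.3; 2 groups, no covariate, two-sided, Benjamini-Hochberg over all tested clusters, threshold 0.05). All 9 members with a cluster matched the RefSeq gene table by Entrez identifier. Lists are described by counts and medians. The members and lists were chosen with earlier results of these data known. Selected for naming were the members and up to 4 genes of each list with the smallest p (2 where none passed). Mog, as a check of the tissue, and the 5 genes most like each of 3 members, without predicted genes, were added. Not all of those selected from the lists are described above. Outside this rule, Il11, Il27, Ccr2, Camp and Ms4a1 are named for brightness and Ttr for spread. Gja1, Ntsr2 and Slc1a3 complete the called astrocyte markers, Il31 and Il31ra show what a list held, and Lbp is the end of a figure. List genes without a single-symbol cluster were not analysed here. In arrays simulated with independent normal noise over 23410 clusters, 82 of 100 changes at 1.5-fold and 99 of 100 at 2-fold were recovered. Of 188 calls 7 were false. Fewer clusters were changed there than the 8.22% called in the real data. Changes as small as those of Il6st (1.24-fold) and Socs3 (1.20-fold) were not simulated, so their recovery is not known. The number of arrays limits the precision. Titles number the replicates 1 to 4 in both diets without stating a pairing. Alternatives were the replicate block, each array left out, other priors, scalings, filters, cluster sets and array weights.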

Additional observations from a re-analysis of the deposited data

Results flagged for a closer look

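For 10 values, the 9 measured genes and the mean of the STAT3-induced list, each group of 4 arrays was checked for an array whose gap to its nearest neighbour, divided by the range of the group, exceeded Dixon's 95% critical value. Of the 20 groups 3 held one, and chance gives about 1 in 20. Osmr on control replicate 2 stood at 7.89, against 7.15 to 7.25 on the other controls (gap over range 0.869), and the log2 fold change without that array was 2.13. Stat3 on cuprizone replicate 2 stood at 9.92, against 10.06 to 10.08 on the other cuprizone arrays (0.907). Socs3 on control replicate 4 stood at 7.15, against 7.24 to 7.25 on the other controls (0.927), a distance under 0.10 log2 units.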

How the results depend on the processing

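All 9 genes kept their direction and their side of the threshold in every fit that could include them, except Socs3, which stood at 0.0288 in its other cluster (adjusted p = 0.844). The Osm and Lif clusters were not tested without the dimmest 25% of clusters, and neither they nor Socs3 among clusters above the median level, where 4 members were called higher. When single arrays were left out, 5 members were called higher and 0 lower each time, Osmr ranged from 1.85 to 2.13, Clcf1 from 1.07 to 1.36, Stat3 from 0.76 to 0.89, Il6st from 0.29 to 0.35 and Socs3 from 0.24 to 0.28. Over all clusters 1102 were higher and 823 lower, 795 to 1122 and 609 to 741 without 1 array, and 632 and 555 by the ordinary F test. Of the 30 STAT3-induced genes 15 to 17 were higher without 1 array. Replicate numbers were not treated as a pairing: deviations of same-numbered arrays correlated at -0.19, -0.02, 0.21 and -0.06, and 2 of 8 arrays correlated best with their own number. With the replicate block 5 members were higher and 0 lower, at Osmr 1.96 (adjusted p = 0.00139) and Socs3 0.26 (0.0427), 892 clusters were higher and 636 lower, and Ptpn6 lost its call (0.0528, the highest of a range from 0.00833 over the alternatives). Of 35 genes selected for naming from the lists 8 had another call under at least 1 alternative. They were Stat2, Ptpn6, Rarres2, C1ql1, Pdgfrb, Slc17a7, Fmod and Aldh1a2. Ptpn6 and Rarres2 lost theirs, Rarres2 by the ordinary F test (adjusted p = 0.0657). The other cases were calls gained. No cluster has a known signal over background, which limits what can be said of dim ones such as Osm, Lif, Il6 and many blood cell markers.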
